A study of Mus musculus with 12 samples.

Results

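The hepatic ABC exporters are membrane pumps of the liver that use ATP to move bile acids, conjugates, lipids, sterols and drugs out of cells. The set holds 10 genes: Abcc2, Abcc3, Abcc4, Abcc6, Abcb1a, Abcb4, Abcb11, Abcg2, Abcg5 and Abcg8. Members were taken as every probe set that the array's annotation gives to 1 of these symbols and to no other gene. This gave 11 probe sets for 10 genes, out of 34945 probe sets for 18193 genes that name a single gene. All 11 passed the filter on low signals. Abcb1a had 2 probe sets and every other member had 1. The brighter Abcb1a probe set represents the gene where 1 value per gene is used.

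Exporters sit on either pole of the hepatocyte. On the canalicular membrane, which faces bile, Abcb11 (the bile salt export pump) moves bile acids, Abcb4 flips phosphatidylcholine into bile, and Abcg5 with Abcg8 form 1 heterodimer that secretes cholesterol and plant sterols. Abcc2 exports glucuronide and glutathione conjugates such as conjugated bilirubin, Abcb1a is a P-glycoprotein that exports hydrophobic drugs, and Abcg2 (the breast cancer resistance protein) exports sulphate conjugates, urate and porphyrins. Abcc3 and Abcc4 sit on the basolateral membrane, which faces blood, and carry conjugates and bile acids back to the circulation. Abcc6, also basolateral, is needed for the release of ATP that keeps soft tissue from calcifying. Several of these genes are textbook targets of the drug-sensing receptors CAR and PXR, of the bile acid receptor FXR, of the sterol receptor LXR or of NRF2.

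All mice were female, homozygous for the floxed allele YAP fl/fl, and 8 to 12 weeks old. Each received 2.5e+11 particles of an AAV8 vector by intraperitoneal injection, with the hepatocyte promoter TBG driving Cre in the YAP knockouts (KO) or eGFP in the controls (WT). The controls therefore also carried the floxed allele and the virus. TCPOBOP, a CAR agonist and liver mitogen, was gavaged once in corn oil at 3 mg/kg 10 days after the virus, and livers were taken 1 or 2 days later. Day 0 mice had virus alone, without TCPOBOP or oil, so that drug, vehicle, gavage and elapsed time cannot be told apart. There were 12 arrays, and each genotype had 2 for day 0, a single pool of RNA for day 1 and 3 for day 2. The labels do not say that arrays of a group are separate animals, so p-values measure the spread between these arrays. TBG is active in hepatocytes, so other liver cells keep Yap1.

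Values are MAS5 signals, the arbitrary brightness units of Affymetrix software. Yap1, by its brighter probe set, read 999.2 to 1306.3 on the WT arrays and 449.6 to 796.7 on the KO arrays. Averaged over the 3 days, KO minus WT was -1.02 on the log2 scale (exact permutation p 0.00833, two-sided, the smallest that 240 within-day arrangements can give). The dimmer Yap1 probe set gave -0.40 (exact permutation p 0.475), and whether either lies in the deleted part was not tested. Cyp2b10, the classical CAR target, rose 30.7-fold in WT and 20.8-fold in KO by day 2. Of 6 hepatocyte markers, 5 were on the array and were bright everywhere, with no signal under 12571.8. The highest signal on an array was 103216 to 116918 on the WT day 2 arrays and 48217 to 67457 on the KO day 2 arrays. At day 0 it was 71165 to 73118 in WT and 88576 to 102372 in KO. Quantile normalization, which puts all arrays on 1 distribution, is therefore given beside the genotype differences of members at day 2 that come near the threshold or change sign under it.

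Start-site sequences are shown for the 3 genes with the largest tested rises over both genotypes that have an entry in the promoter table, and for the pair of neighbouring genes that fell. The RefSeq promoter table (GRCm38.p6) held 8 of the 10 members, with 12 start sites. It had no entry for Abcc3 and Abcc6. Each promoter entry covers 250 bases before the start and 50 after it, and the 250 before the start are printed here 5′ to 3′ on the gene's strand. Capitals mark matches to the motifs given below.
Abcc2, chr19:43782058-43782307, plus strand: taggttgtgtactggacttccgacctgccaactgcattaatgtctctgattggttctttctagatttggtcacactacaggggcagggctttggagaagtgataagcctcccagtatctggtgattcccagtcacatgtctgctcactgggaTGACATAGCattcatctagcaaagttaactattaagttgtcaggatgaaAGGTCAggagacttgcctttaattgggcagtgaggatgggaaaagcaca
Abcc4, chr14:118706220-118706469, minus strand: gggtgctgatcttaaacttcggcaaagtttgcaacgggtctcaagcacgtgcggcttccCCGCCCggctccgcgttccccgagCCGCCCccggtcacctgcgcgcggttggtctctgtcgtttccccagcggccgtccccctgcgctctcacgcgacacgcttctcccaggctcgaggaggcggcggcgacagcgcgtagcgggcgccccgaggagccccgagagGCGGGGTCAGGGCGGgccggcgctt
Abcb1a, chr5:8566841-8567090, plus strand: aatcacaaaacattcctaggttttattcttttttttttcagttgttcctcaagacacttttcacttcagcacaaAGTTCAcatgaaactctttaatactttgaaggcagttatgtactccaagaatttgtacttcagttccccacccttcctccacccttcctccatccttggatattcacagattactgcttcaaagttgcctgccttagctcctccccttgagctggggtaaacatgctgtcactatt
Abcg5 and Abcg8, the 109 bases between their divergent starts, chr17:84683012-84683120, plus strand: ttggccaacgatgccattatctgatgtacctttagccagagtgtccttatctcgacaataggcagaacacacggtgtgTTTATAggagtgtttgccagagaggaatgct

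Both strands were searched for 8 motifs. The nuclear receptor half-site AGGTCA was present in 16.3% of all 32851 promoter entries and in 4 of the 12 member entries, and its variant AGTTCA in 14% and in 5. The core of the antioxidant response element bound by NRF2, TGACNNNGC, was present in 12.4% of all entries and in 4 member entries. These belong to Abcc2 (98 bases before the start), Abcb1a (27 bases into the transcript) and both Abcc4 starts (25 and 23 bases before). The GC box GGGCGG was present in 35.7% of all entries and in 4 member entries, and the TATA box TATAAA in 13.6% and in 4. A longer half-site, CAAGGTCA, was present in 1.56% of all entries and in 1 of the 3 Abcg2 entries, 123 bases before that start. It contains AGGTCA, and the Abcg2 match is counted under both. The Abcg5 entry and 1 of the Abcg8 entries share 209 bases, and 1 AGTTCA site and 1 TATAAA site in that stretch are counted for both genes. A direct repeat with 4 bases between its half-sites, AGNTCANNNNAGNTCA, was in 0.125% of all entries, and an inverted repeat with 1 base between, AGGTCANTGACCT, in 0.00913%. Neither repeat had a match in a member entry. Abcc2 also held AGGTCA 49 bases before its start, Abcb1a held AGTTCA 176 bases before its start, and the upstream Abcc4 start had 3 GC boxes. Abcg5 and 1 of the 2 listed Abcg8 starts lie back to back, while the other Abcg8 start, at position 84676302 of chromosome 17, has an entry that shares 0 bases with that of Abcg5. The stretch between the divergent starts holds a match to TATAAA on the minus strand, 31 bases before the Abcg8 start and 84 before that of Abcg5.

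By day 2 of TCPOBOP, the conjugate and drug exporters Abcc2, Abcc3, Abcc4 and Abcb1a rose in both genotypes, Abcg2 rose in WT, and the sterol exporter gene Abcg8 fell in both. Abcg5 fell in WT and Abcc6 in KO. Abcb4 and Abcb11, which carry phospholipid and bile acids into bile, did not pass the test in either genotype. Tests are limma's on log2 of the signal plus 16, with 6 group means fitted to all 12 arrays and Benjamini-Hochberg adjustment over 14102 genes. A gene was called at an adjusted p under 0.05. In WT, 5 of 10 members were called higher and 2 lower, where 7.26% and 5.38% of all genes tested were called in those directions. In KO, 4 of 10 members were called higher and 2 lower, with 4.20% and 4.49% of all genes tested. Centring on array medians gave KO counts of 4 higher and 1 lower. The median member difference was 0.38 in WT and -0.24 in KO, beside -0.11 and 0.05 over all genes. In these bulk tissue samples, fewer cells of a type and less RNA per cell cannot be told apart.

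**Figure D1:**
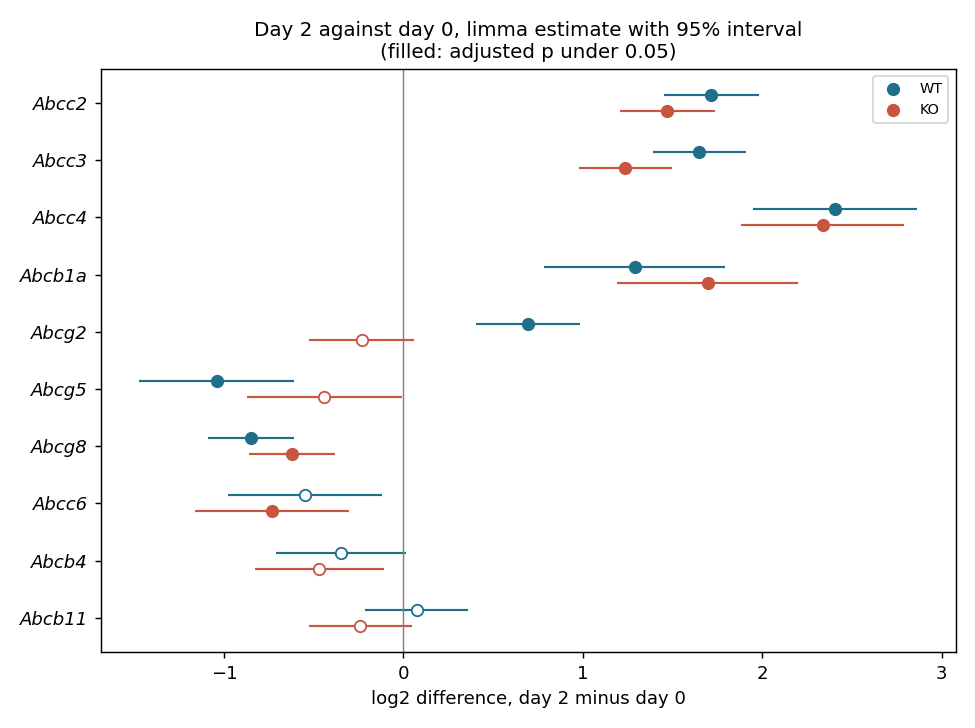
Log2 difference of day 2 against day 0 for each exporter in WT (blue) and KO (red), as limma estimates with 95% intervals; filled points have an adjusted p under 0.05. Abcc2, Abcc3, Abcc4 and Abcb1a lie to the right of 0 in both genotypes and Abcg8 to the left, whereas the Abcg2 estimates are 0.69 in WT and -0.23 in KO.

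Abcc4 had the largest rise of the set. Its signal in WT was 165.6 and 174.8 at day 0 and 919.3, 1076.6 and 922.8 at day 2. The KO arrays gave 204.7 and 156.7 before TCPOBOP and 1116.5, 1052.7 and 778.2 after it. Every day 2 array lay far above every day 0 array of its genotype, and the genotypes overlapped at both days. The rise was 5.30-fold in WT (log2 2.41, SE 0.21, adjusted p 2.09e-05) and 5.06-fold in KO (log2 2.34, SE 0.21, adjusted p 4.29e-05). Each fold is on the scale of signal plus 16, which understates the change of a dim gene; the plain ratio of mean signals was 5.72 in WT and 5.44 in KO.

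Abcc2, the canalicular exporter of conjugated bilirubin, read 1346.9 and 1355.6 at day 0 in WT and 4293.9, 4669.1 and 4484.4 at day 2. The KO livers started from 1481.8 and 1431.6 and reached 4533.7, 4012 and 3698.3. It rose 3.29-fold in WT (log2 1.72, SE 0.12, adjusted p 5.82e-06) and 2.77-fold in KO (log2 1.47, SE 0.12, adjusted p 3.02e-05). The day 2 arrays of the genotypes overlapped. Both day 0 KO arrays were slightly above both WT arrays, without a call (KO minus WT 0.11, 95% interval -0.18 to 0.40).

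Abcc3, which returns conjugates to blood, read 4171.3 and 3690.8 at day 0 in WT and 12885.9, 11734.8 and 12469.5 at day 2. The KO livers went from 3461.2 and 3788.5 to 8451.5, 8099.9 and 9167.5. The day 0 arrays overlapped between genotypes, and at day 2 all 3 KO arrays lay below all 3 WT arrays. Abcc3 rose 3.14-fold in WT (log2 1.65, SE 0.12, adjusted p 5.82e-06) and 2.36-fold in KO (log2 1.24, SE 0.12, adjusted p 6.30e-05). The calls of Abcc2, Abcc3, Abcc4 and Abcb1a in both genotypes held under each of the 17 alternatives run, which include leaving out any 1 array of the groups compared.

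Abcb1a, the P-glycoprotein gene, read 267.9 and 217.8 at day 0 in WT and 573.5, 681.9 and 591.2 at day 2 on its brighter probe set. The KO values were 135.6 and 182.4 before and 476.8, 613.9 and 556.2 after TCPOBOP. Both day 0 KO arrays lay below both WT arrays, whereas the day 2 arrays overlapped. The rise was 2.44-fold in WT (log2 1.29, SE 0.23, adjusted p 0.00327) and 3.24-fold in KO (log2 1.70, SE 0.23, adjusted p 0.000813). The dimmer probe set read 136.3 and 125.4 at day 0 and 394.6, 367.5 and 267.7 at day 2 in WT. It read 81.8 and 145.5 and then 199.4, 341 and 261.2 in KO. On both probe sets every day 2 array lay above every day 0 array of its genotype. With every kept probe set fitted as its own row, the dimmer one was called in WT (log2 1.27, SE 0.37, adjusted p 0.0485) and not in KO (log2 1.14, SE 0.37, adjusted p 0.0944). In that fit 6.89% of 23038 probe sets were called higher in WT and 3.39% in KO.

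Abcb1a and the Abcc genes are also made outside hepatocytes, Abcb1a in endothelium and Abcc3 and Abcc4 in bile duct cells. The summed signal of 7 endothelial markers was 6811 to 7906 at day 0 and 4606 to 5336 at day 2 in WT, with 2 of 6 tested markers called lower and 0 higher. In KO it was 6602 to 8714 and 5992 to 7001, with no call in 6. For 5 bile duct markers on the array, the sum was 1076 to 1231 and 1214 to 1535 in WT and 1487 to 1660 and 950 to 1459 in KO. Only 2 of these 5 passed the filter and neither was called, and the dimmest marker, Cftr, read 13.1 to 94.8. The dimmest endothelial marker, Vwf, read 15.6 to 194.3, so no marker of these lists stood at 0. The summed signal of the 5 hepatocyte markers was 254337 to 254851 at day 0 and 304803 to 349575 at day 2 in WT, and 296734 to 352747 and 169118 to 216164 in KO. By limma on the values as deposited, 5 of the 5 hepatocyte markers fell in KO, beside 4.49% of all genes tested. In WT 2 rose and 1 fell, beside 7.26% and 5.38%. The mean log2 value of the 200 brightest genes was 14.501 to 14.764 at day 0 and 14.293 to 14.467 at day 2 in KO. In WT it was 14.435 to 14.474 and then 14.597 to 14.790. Marker values after quantile normalization are not given. The part of the markers of these 3 cell types, or of the shift in bright signals, in the exporter values was not tested.

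Abcg2 changed in opposite directions in the 2 genotypes, whose signals crossed. In WT it read 1134.4 and 1191.5 at day 0 and 1934.2, 1663.1 and 2104.9 at day 2, with every day 2 array above both day 0 arrays. The KO arrays gave 1604.1 and 1727.4 before TCPOBOP and 1408.4, 1349.4 and 1491 after it, with every later array below both earlier ones. Thus KO lay above WT on every array at day 0 and below it on every array at day 2. By limma, Abcg2 was not called between the genotypes at day 0 (KO minus WT 0.51, adjusted p 0.316) or at day 2 (-0.41, adjusted p 0.0514). With so few arrays in a group, full separation can arise by chance. How many of all genes separate in this way was not computed, for Abcg2 or for the other members described so. The WT rise was 1.62-fold (log2 0.69, SE 0.13, adjusted p 0.00514), and the KO difference was -0.23 (SE 0.13, adjusted p 0.340). Without WT day 0 replicate 1, the WT value was 0.66 and no longer called (adjusted p 0.0532).

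The change of Abcg2 in KO minus that in WT was -0.93 (95% interval -1.34 to -0.51, adjusted p 0.0286), and -0.88 after quantile normalization (adjusted p 0.0413). As deposited, 2 members (Abcg2 and Abcc3) were lower in this comparison at an unadjusted p under 0.05 and 0 were higher. After quantile normalization Abcc3 was no longer lower at that threshold. Abcg5 (0.73, adjusted p 0.159) and Abcg8 (0.40, adjusted p 0.197) were then higher at it, without a call. The share of all genes at an unadjusted p under 0.05 was not computed, here or for later counts at it. Abcg2 was the 1 member called in this comparison, where 2.06% of all genes were called lower and 1.08% higher. The value ran from -1.11 to -0.85 over 22 alternatives, and 8 of them ended the call, with adjusted p up to 0.0905. These 8 were eBayes without trend and robust settings, and leaving out WT day 0 replicate 1 or 2, WT day 2 replicate 1 or 3, or any of the 3 KO day 2 replicates. Abcg2 is also made by erythroid and endothelial cells. The summed signal of the 3 erythroid markers on the array was 614 to 1252 at day 0 and 654 to 760 at day 2 in WT, and 927 to 1106 and 507 to 622 in KO. Among these, 1 of 2 tested erythroid markers fell in KO and none was called in WT. In the difference of the changes on the values as deposited, 3 of 5 hepatocyte markers were called lower and 0 higher. No erythroid or endothelial marker was called in it. The part of hepatocyte, erythroid and endothelial RNA in the Abcg2 values was not tested.

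Abcg5 and Abcg8, the subunits of the sterol exporter, lie side by side on chromosome 17. Abcg8 read 3752.2 and 3694.2 at day 0 in WT and 2074.3, 1998.5 and 2113.5 at day 2, and 3338.3 and 3575.9 and then 2184.4, 2302.9 and 2241.5 in KO. It fell 1.80-fold in WT (log2 -0.85, SE 0.11, adjusted p 0.000395) and 1.54-fold in KO (log2 -0.62, SE 0.11, adjusted p 0.00442). In each genotype the day 0 and day 2 arrays were well apart, and both calls held under all 17 alternatives. All KO arrays lay below WT at day 0 and above it at day 2, without a call at either day or for the difference of the changes (0.23, 95% interval -0.11 to 0.57).

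Abcg5 read 3028.3 and 3322.7 at day 0 in WT and 1430.3, 1474.3 and 1712.5 at day 2, a fall of 2.06-fold (log2 -1.04, SE 0.20, adjusted p 0.00472). Without WT day 0 replicate 2 this call was lost (-0.97, adjusted p 0.0551). In KO the day 0 arrays were far apart, at 3415.9 and 2002.7, and the second lay inside the day 2 values of 1737.9, 2116.4 and 1935.5. The KO difference was -0.44 (SE 0.20, adjusted p 0.209), and without KO day 0 replicate 2 it was -0.82 and called (adjusted p 0.0110). At day 2 all 3 KO arrays lay above all 3 WT arrays, without a call (0.32, 95% interval -0.06 to 0.71). The difference between the KO and WT changes, 0.60, was not called (adjusted p 0.244), but was 0.98 and called (adjusted p 0.0304) without KO day 0 replicate 1.

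Abcc6 and Abcb4 were lower on all day 2 arrays than on all day 0 arrays of their genotype, with small differences. Abcc6 read 2339.7 and 1789.3 and then 1360.7, 1246.3 and 1593.7 in WT, and 2965.8 and 1985.1 and then 1599.7, 1258.8 and 1527.4 in KO. Its difference was -0.55 in WT (SE 0.20, adjusted p 0.0920), and it fell 1.66-fold in KO (log2 -0.73, SE 0.20, adjusted p 0.0388). The KO call was lost under 9 of 17 alternatives, among them leaving out KO day 0 replicate 1 (-0.44, adjusted p 0.248) or any of the 3 KO day 2 replicates (adjusted p 0.0602 to 0.133). Abcb4, the phosphatidylcholine floppase gene, read 6917.3 and 6069.5 and then 4604.7, 5623.3 and 5096.3 in WT. The KO values were 7460.1 and 5337.3 and then 4391, 4142.2 and 5215.5. Its differences were -0.35 in WT (95% interval -0.71 to 0.01, adjusted p 0.202) and -0.47 in KO (95% interval -0.83 to -0.11, adjusted p 0.111). It was called in WT after quantile normalization (-0.52, adjusted p 0.0419) and in KO without KO day 0 replicate 2 (-0.71, adjusted p 0.0239).

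Abcb11, the bile salt export pump gene, was not called in either genotype. In WT it read 12397.2 and 12915.5 at day 0 and 14117.4, 11789.8 and 14198.7 at day 2, with the day 2 arrays on both sides of day 0. The KO livers gave 15164.4 and 13217.5 before and 10927.2, 12107.3 and 13033.5 after TCPOBOP, all of the later ones lower. The WT difference was 0.07 (95% interval -0.21 to 0.36, adjusted p 0.763), and -0.19 after quantile normalization. The KO difference was -0.24 (95% interval -0.52 to 0.05, adjusted p 0.313).

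**Figure D2:**
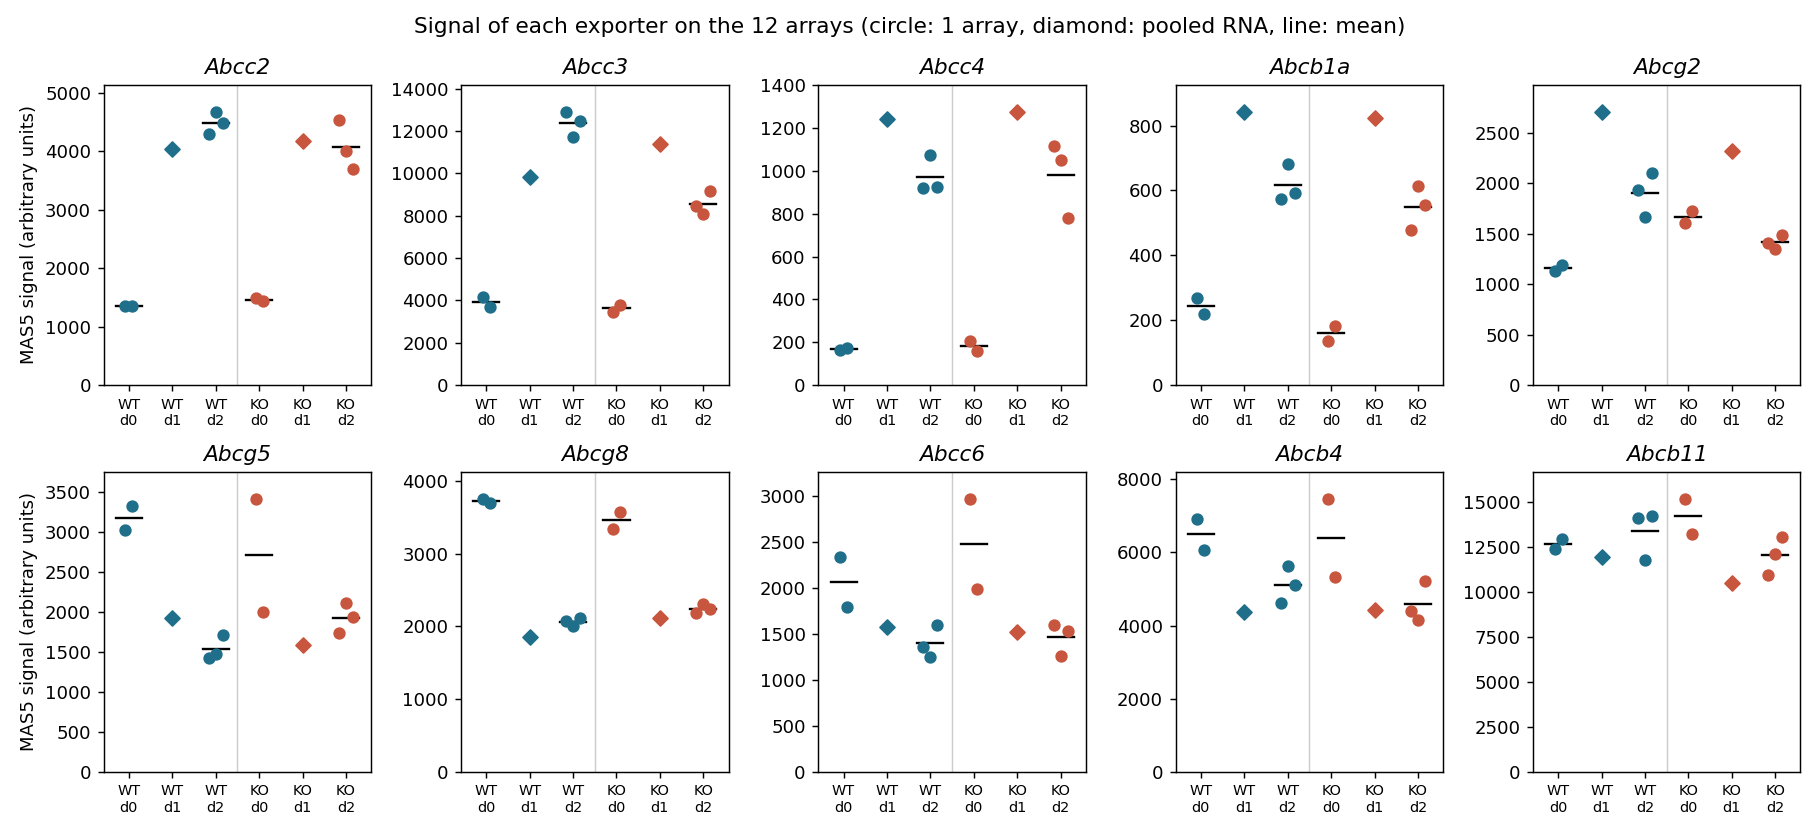
MAS5 signal (arbitrary units, linear axes from 0, each panel with its own scale) of each exporter on the 12 arrays, by genotype (WT blue, KO red) and day; circles are single arrays, diamonds the pooled day 1 arrays and lines the group means. The day 2 points of Abcc2, Abcc3, Abcc4 and Abcb1a lie above day 0 in both genotypes, and those of Abcg2 lie above day 0 in WT and below it in KO.

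At day 1 each genotype had 1 pooled array, so these values have no replicate check and no test. Against the day 0 mean of its genotype, the WT pool was at least 2-fold higher for 5 of 10 members and at least 2-fold lower for 1, where 6.35% and 6.98% of all genes passed those folds. In the KO pool 4 of 10 were at least 2-fold higher and 0 were lower, where 6.11% and 6.74% of all genes passed. Abcc4 read 1241.3 in the WT pool and 1274.3 in the KO pool, 6.75-fold and 6.61-fold above day 0 and above every day 2 array. Abcb1a read 841 and 821.8, which is 3.33-fold and 4.83-fold above day 0 and also above every day 2 array. Abcc2 was already near its day 2 signal, at 4045.9 and 4177.2 (2.97-fold and 2.85-fold).

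The pools of Abcc3 lay on opposite sides of its day 2 arrays. The WT pool read 9833.4, below all WT day 2 arrays, whereas the KO pool read 11367.7, above all KO day 2 arrays. Abcg2 was highest in the pools, at 2705 in WT (2.31-fold above day 0) and 2316.6 in KO (1.39-fold), each above every other array of its genotype. Abcg8 read 1847.5 in the WT pool, 2.01-fold below day 0, and 2113 in the KO pool. Abcg5 read 1920.4 and 1584.9, Abcc6 1578.9 and 1518.2, and Abcb4 4369.8 and 4426.4, each below all day 0 arrays of its genotype. Abcb11 read 11935.4 and 10475, also below its day 0 arrays.

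Between the genotypes at day 2, Abcc3 was the 1 member called. It was 1.44-fold lower in KO (log2 -0.53, SE 0.11, adjusted p 0.0128), where 5.23% of all genes were called lower and 3.99% higher. After quantile normalization the difference was -0.24 and not called (adjusted p 0.152), and without KO day 2 replicate 2 it was -0.49 and not called (adjusted p 0.0663). The Abcc3 changes from day 0 differed by -0.41 (95% interval -0.78 to -0.05, adjusted p 0.188), which did not pass, and by -0.096 after quantile normalization (adjusted p 0.764). In the same comparison at day 2, as deposited, 3 of 5 hepatocyte markers were called lower in KO and 0 higher. Cyp2b10 was lower too (-0.42, adjusted p 0.0263), while its changes from day 0 differed by -0.56 without a call (adjusted p 0.0775). Cyp2b10 and these markers are bright, and the mean log2 value of the 200 brightest genes was itself lower in KO (14.293 to 14.467) than in WT (14.597 to 14.790). Their values after quantile normalization are not given. The part of these genes, or of the shift in bright signals, in the Abcc3 difference was not tested. Abcg2 was next, at -0.41 (95% interval -0.68 to -0.15, adjusted p 0.0514), or -0.33 after quantile normalization (adjusted p 0.109), and was called under 5 of 18 alternatives. Under these 5, which were array weights, median centring, the stricter filter, averaged probe sets and leaving out WT day 2 replicate 2, adjusted p ran from 0.0165 to 0.0473. No member was called higher in KO at day 2, and as deposited none was higher at an unadjusted p under 0.05. After quantile normalization Abcg5 was 0.42 (95% interval 0.06 to 0.78, limma unadjusted p 0.0271, adjusted p 0.145). Abcg8 was then 0.26 (95% interval 0.04 to 0.47, limma unadjusted p 0.0250, adjusted p 0.139), also without a call. Abcc4 differed by 0.00 (95% interval -0.41 to 0.41) and Abcc2 by -0.14 (95% interval -0.38 to 0.10), which quantile normalization turned to -0.036 and 0.065. It also turned Abcb4 from -0.16 to 0.063 and Abcb11 from -0.15 to 0.15, without a call either way. The median of the members was -0.15 and that of all genes 0.09. Centring each array on its median moves every gene by -0.17 in this comparison and by -0.19 in the difference of the changes. It moves the day 2 changes by 0.12 in WT and by -0.06 in KO.

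At day 0, before TCPOBOP, limma called no member in either direction, and 0.0638% of all genes were called higher and 0.106% lower. At an unadjusted p under 0.05, 1 member was higher and 1 was lower in KO. These were Abcg2 (0.51, 95% interval 0.19 to 0.83, adjusted p 0.316) and Abcb1a (-0.57, 95% interval -1.12 to -0.02, adjusted p 0.591). The shares above are for an adjusted p and cannot be set beside this count, and no share of all genes at the unadjusted threshold was computed. The comparisons between genotypes use the same arrays as those between days, so their values are not independent of each other.

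**Figure D3:**
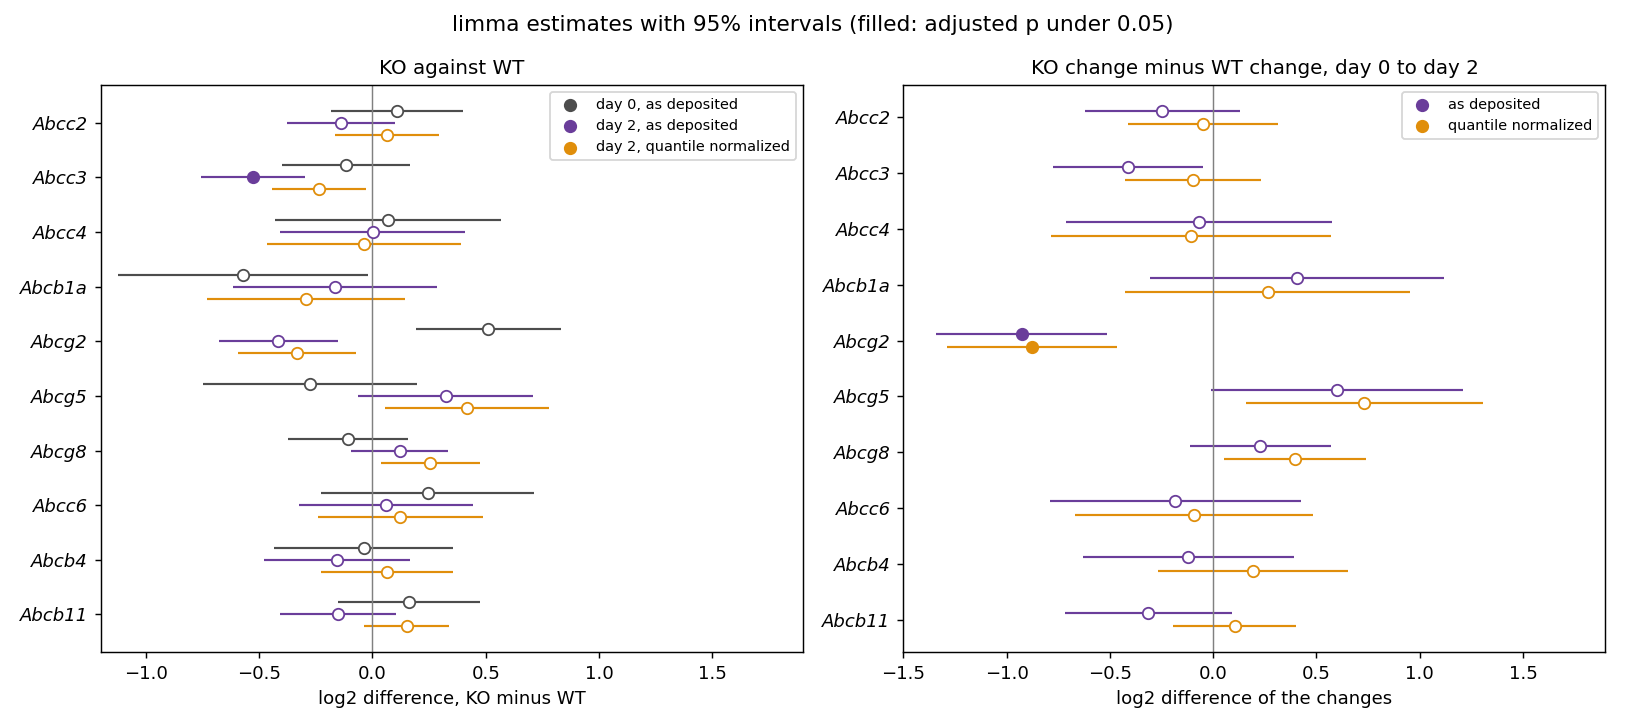
Log2 difference of KO against WT at day 0 and day 2 (left) and of the KO change minus the WT change (right) for each exporter, as limma estimates with 95% intervals, before and after quantile normalization; filled points have an adjusted p under 0.05. Abcg2 is the filled pair on the right, at -0.93 and -0.88, and Abcc3 is filled on the left only as deposited, at -0.53.

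Some members had alike profiles over the 12 arrays. Likeness was measured as the root mean square difference of log2 values after each gene was centred on its mean, so that 0 is the same course; it is a description over arrays of 6 groups. Abcc2 and Abcc3 were 0.204 apart, Abcc3 and Abcb1a 0.296, Abcc6 and Abcb4 0.213, Abcb4 and Abcb11 0.222, and Abcg5 and Abcg8 0.236. The last pair did not stand out, since Abcg8 was 0.246 from Abcb4 and 0.248 from Abcc6, and Abcg5 was 0.262 from Abcc6. A gene that varies little has small distances, so they are to be read beside its standard deviation over the arrays. This was 0.751 for Abcc2, 0.716 for Abcc3 and 0.815 for Abcb1a. It was 0.348 for Abcc6, 0.417 for Abcg5 and 0.370 for Abcg8. Abcc4 was 0.456 from Abcc2, its closest member, and its standard deviation over the arrays, 1.18, was the widest of the 8 members called in at least 1 comparison. Abcg2 was 0.400 from its closest member, Abcb11, which is more than its own standard deviation of 0.362, so no member was much like it. Outside the set, Abcg8 had the closest partner of these 8 members, the medium-chain acyl-CoA synthetase gene Acsm5 at 0.0634, and then the acyl-CoA dehydrogenase gene Acads at 0.136. Abcg5 was closest to Yif1a (0.122) and 0610030E20Rik (0.123), and Abcc6 to Fam210b (0.123) and Nipsnap1 (0.141).

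Of the members that rose, Abcc2 was closest to Pla2g12a, a secreted phospholipase A2 gene, at 0.125 and the glutaredoxin gene Glrx5 at 0.128. Abcc3 was closest to the glutathione transferase gene Gstt1 at 0.147 and Lect2 at 0.157. Abcb1a was closest to Alas1, the first enzyme of haem synthesis, at 0.193 and Prg4 at 0.209. Abcc4 was closest to 4931406C07Rik at 0.221 and Scube1 at 0.233, and Abcg2 to the carboxylesterase gene Ces1c at 0.134 and Hnrnpf at 0.142.

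Among other genes of the ABC family, Abcd2, Abca8a and Abca5 fell and Abce1 rose in WT, and Abca8a fell in KO. Of 38 on the array, 33 passed the filter, and Abcb9, Cftr, Abca13, Abca16 and Abca4 did not. In WT 1 of 33 was called higher and 3 lower, beside 7.26% and 5.38% of all genes tested. In KO 0 were called higher and 1 lower, beside 4.20% and 4.49%. At an unadjusted p under 0.05 the counts were 3 and 7 in WT and 1 and 3 in KO. The shares above are for an adjusted p under 0.05 and cannot be set beside these counts. No share of all genes at the unadjusted threshold was computed. The median difference of the 33 genes was -0.31 in WT and 0.10 in KO. Abcd2, a peroxisomal importer of very long chain fatty acids, read 1845.7 and 1743.8 at day 0 and 347.1 to 569.1 at day 2 in WT, a fall of 3.91-fold (log2 -1.97, adjusted p 0.00123). In KO it read 900.5 and 907.6 and then 532.2 to 1261.8, and the changes differed by 1.92 (adjusted p 0.0374). That call was lost under 15 of 22 alternatives, with values from 0.72 to 2.27. The lowest, 0.72 (adjusted p 0.368), came from averaging the probe sets of Abcd2, so they do not all show the difference of the brightest one. Leaving out any of the day 0 or day 2 arrays other than WT day 2 replicate 3 and KO day 2 replicate 3 was among these 15. Abcd2 was the 1 family gene called in that comparison, where at an unadjusted p under 0.05 7 were higher and 2 lower.

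Abca8a, a lipid transporter gene, fell 3.85-fold in WT (log2 -1.94, adjusted p 9.36e-05) and 2.60-fold in KO (log2 -1.38, adjusted p 0.00156). It read 2791.2 and 3376.9 and then 731 to 838.2 in WT, and 2504.5 and 4493.6 and then 1247.5 to 1314.1 in KO. Abca5 fell in WT (-0.92, adjusted p 0.0238). In KO it was -0.49 (adjusted p 0.250), and its changes differed by 0.44 (adjusted p 0.469), without a call. Abce1, which recycles ribosomes and is no transporter, rose in WT (0.63, adjusted p 0.00785), from 1617.4 and 1665.9 to 2466 to 2597.3. In KO Abce1 was 0.20 (adjusted p 0.398), and its changes differed by -0.43 (adjusted p 0.213), also without a call. The Abce1 call was lost without either WT day 0 array, and the Abca5 call without either of them, without WT day 2 replicate 1 or 3, or with probe sets averaged. The adjusted p then reached 0.0677 for Abce1 and 0.180 for Abca5.

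At day 2, KO against WT, Abca8a (0.69, adjusted p 0.0378) and the cholesterol exporter gene Abcg1 (0.56, adjusted p 0.0337) were called higher. Abcb6, a mitochondrial and lysosomal porphyrin transporter gene, was called lower (-0.42, adjusted p 0.0496). These are 2 and 1 of 33 genes, beside 3.99% and 5.23% of all genes. Quantile normalization ended the calls of Abcg1 (0.51, adjusted p 0.0511) and Abcb6 (-0.41, adjusted p 0.0660). Leaving out any 1 of the 6 day 2 arrays ended the calls of Abca8a and Abcb6, and any but WT day 2 replicate 2 that of Abcg1. With an array left out, the adjusted p reached 0.113 for Abca8a, 0.149 for Abcb6 and 0.126 for Abcg1, and centring on array medians ended the calls of Abca8a (adjusted p 0.130) and Abcg1 (adjusted p 0.132). At day 0 no family gene was called by limma, with 1 higher and 1 lower at an unadjusted p under 0.05. Abcb1b, which lies between Abcb1a and Abcb4 on chromosome 5 and encodes the second drug-exporting P-glycoprotein, read 609.6 and 682.8 at day 0 and 467.4 to 547.6 at day 2 in WT. It did not pass in WT (-0.31, adjusted p 0.350) or KO (0.38, adjusted p 0.277), while its neighbour Abcb1a rose in both. Abcb1b falls outside the rule for named genes and was chosen after its values were seen.

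**Figure D4:**
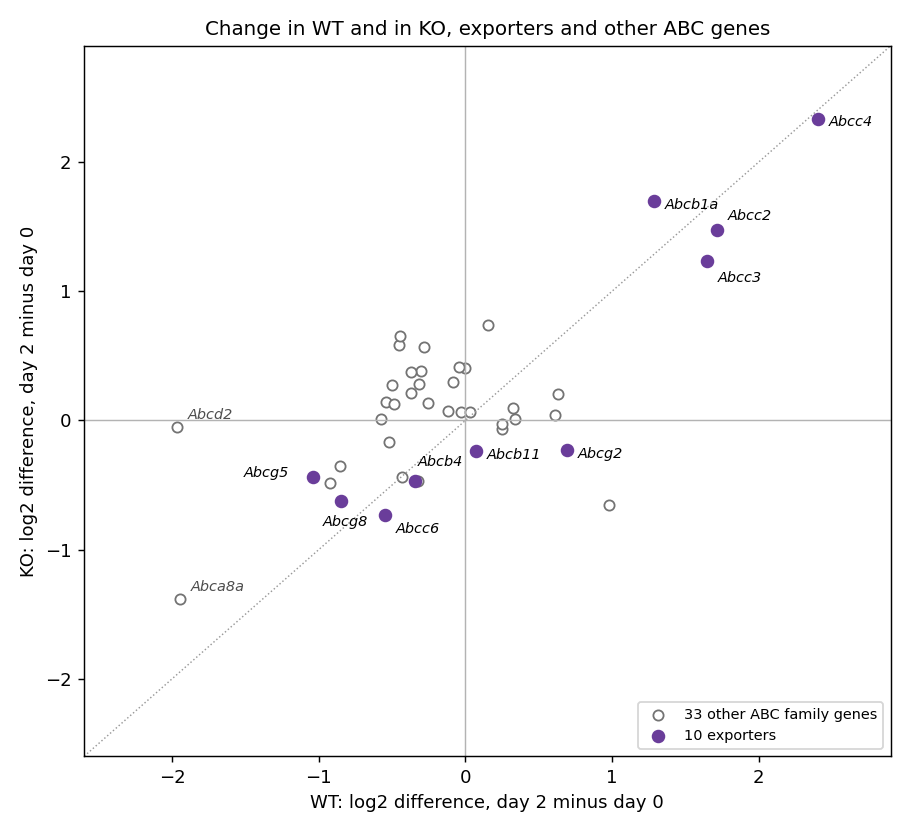
Log2 difference of day 2 against day 0 in WT (horizontal axis) and in KO (vertical axis) for the 10 exporters (filled) and 33 other ABC family genes (open); the dotted line marks equal differences. Abcc2, Abcc3, Abcc4 and Abcb1a lie at the upper right, with WT values of 1.29 to 2.41, and Abca8a at the lower left.

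Among regulators of the exporters and their partners at the canalicular membrane, 27 of 28 listed genes were on the array and 26 were tested. In WT 3 were called higher and 3 lower, beside 7.26% and 5.38% of all genes tested. In KO 2 were called higher and 3 lower, beside 4.20% and 4.49%. The scaffold genes rose in both genotypes. Slc9a3r1, which encodes the adaptor that ties membrane transporters to ezrin and radixin, read 6935.9 and 6979 at day 0 and 14343.9 to 17035.1 at day 2 in WT, a rise of 2.24-fold (log2 1.17, adjusted p 0.000125). In KO it rose 2.80-fold (log2 1.49, adjusted p 3.75e-05). Pdzk1, another scaffold that binds several transporters, rose 2.08-fold in each genotype (log2 1.06 and 1.06, adjusted p 0.000252 and 0.000374).

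The lipid sensor gene Ppara fell 4.05-fold in WT (log2 -2.02, adjusted p 7.66e-05) and 2.26-fold in KO (log2 -1.18, adjusted p 0.00415). Nr0b2, the FXR-induced repressor SHP, read 2556.9 and 2591.7 and then 1110.4 to 1529.2 in WT, a fall of 1.87-fold (log2 -0.90, adjusted p 0.00864) that was lost without either WT day 0 array (adjusted p up to 0.0694). In KO, Atp8b1, a canalicular phospholipid flippase gene, fell (-0.89, adjusted p 0.0413), a call lost under 8 of 17 alternatives, among them leaving out either KO day 0 array or KO day 2 replicate 1 or 2 (adjusted p up to 0.171). The WT difference of Atp8b1 was close to that in KO, at -0.79 (adjusted p 0.0538), and its changes differed by -0.10 (adjusted p 0.890). Nr0b2 in KO was 0.16 (adjusted p 0.681), and its changes differed by 1.06 (adjusted p 0.0554), without a call. Nr1i3, the gene for CAR itself, was lower in both genotypes (-0.70 in WT and -0.63 in KO), and Ahr higher in WT (0.74). In KO Ahr was 0.58 without a call (adjusted p 0.0849), and its changes differed by -0.16 (adjusted p 0.774). Nr1i3 in both genotypes and Ahr in WT were called, but these 2 genes fall outside the naming rule and were picked after their values were seen. The Nr1i3 call was lost without WT day 0 replicate 1 in WT (-0.45, adjusted p 0.152), and in KO without any 1 of 4 arrays, KO day 0 replicates 1 and 2 and KO day 2 replicates 1 and 2 (adjusted p up to 0.113). The Ahr call was lost without WT day 0 replicate 2 or any of the 3 WT day 2 replicates (0.37 to 0.78, adjusted p up to 0.267). The FXR gene Nr1h4 (-0.41 in WT, adjusted p 0.0752) and the NRF2 gene Nfe2l2 (0.34 in WT, adjusted p 0.116) did not pass and were likewise picked afterwards. No listed regulator or partner was called by limma between the genotypes at day 2, at day 0 or in the difference of the changes. At an unadjusted p under 0.05, 1 was higher and 3 lower in KO at day 2, 0 and 2 at day 0, and 3 and 0 for the changes. No share of all genes at that threshold was computed to set beside them.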

How the data were processed

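The members, gene lists and markers were chosen with earlier results of these data known. The deposited values are intensities that the authors made with MAS5, per the submitters' processing notes, which give no version. Each array had been scaled to 1 target, as tested on the values. Precision is limited by the number of arrays; there is no read depth. Of 45101 probe sets, 34945 name 1 gene in the platform annotation, 932 name several, 9160 none and 64 are controls. Tests ran on log2(intensity + 16), with no further normalization. Probe sets had to exceed the median of their own array on at least 2 of 12 arrays, and the brightest one by mean log2 stood for its gene, which left 14102 of 18193 genes.

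One fit of 6 group means was made with limma 3.58.1 (R 4.3.3; eBayes, trend and robust on, with 6 degrees of freedom left), two-sided, and checked on simulated data. All 10 members are named, with Yap1, Cyp2b10, up to 4 called genes of each list per comparison with the largest differences, and the 2 genes most alike to each called member. Promoters (RefSeq, GRCm38.p6) were searched and figures drawn in Python 3.11.15 (pandas 2.3.3, matplotlib 3.10.9). Alternatives were no pseudocount or 64, quantile normalization, median centring, no filter or one requiring 6 arrays, averaged or separate probe sets, plain eBayes (no trend, not robust), array weights, a fit to the compared arrays alone, a replicate block, and leaving out each day 0 or day 2 array. Those for genes outside the set were added after the values were seen. Day 1 pools were not tested.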

Additional observations from a re-analysis of the deposited data

Results flagged for a closer look

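The response of Abcg2 differed between the genotypes by limma's test of the difference itself: the change in KO minus the change in WT was -0.93 on the log2 scale (adjusted p 0.0286). This value holds 2 gaps between the genotypes that were not called themselves. KO minus WT was 0.51 at day 0, with 2 arrays in each genotype, and -0.41 at day 2. The alternatives that ended this call and the markers measured beside it are given with the result above. The cause of the difference was not tested. Groups here have at most 3 arrays, too few to ask whether 1 array stands apart.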

How the results depend on the processing

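The 15 called member values were recomputed in 261 combinations of value and alternative: 240 kept the call, 21 lost it and none changed sign. Of 639 such combinations for the 35 values without a call, 602 stayed so with the same sign, 10 gained a call and 27 changed sign. Quantile normalization changed the sign of the Abcb11 change in WT (-0.19). At day 2, KO against WT, it changed the signs of Abcb11 (0.15), Abcb4 (0.063), Abcc2 (0.065) and Abcc4 (-0.036). In the difference of the changes it turned Abcb11 (0.10) and Abcb4 (0.19). Median centring turned Abcc4 (-0.17), Abcc6 (-0.11) and Abcg8 (-0.052) at day 2. Leaving out 1 array at a time turned 4 values of KO against WT at day 0, with ranges of -0.28 to 0.20 for Abcb4, -0.11 to 0.25 for Abcc4, -0.043 to 0.53 for Abcc6 and -0.66 to 0.11 for Abcg5. At day 2 the ranges were -0.10 to 0.16 for Abcc4 and -0.018 to 0.16 for Abcc6. In the difference of the changes they were -0.36 to 0.12 for Abcb4, -0.24 to 0.11 for Abcc4 and -0.47 to 0.10 for Abcc6.

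Members called lower in KO at day 2 against WT (1 as reported) numbered 0 after quantile normalization and 2 with median centring, the stricter filter, averaged probe sets or array weights, and 0 to 2 with an array left out. Members that fell in KO from day 0 to day 2 (2 as reported) numbered 1 with median centring, no filter, plain eBayes (no trend, not robust), array weights, or a fit to the compared arrays alone, and 1 to 4 with an array left out. In the difference of the changes, members called lower (1 as reported) numbered 0 with plain eBayes. With an array left out they numbered 0 to 1, as did members called higher (0 as reported). Members that fell in WT (2 as reported) numbered 3 after quantile normalization, with Abcb4 added, and 1 to 2 with an array left out. The cause of these shifts was not tested, except that leaving out an array leaves fewer arrays. A day 0 group then has 1 array, whose spread is taken to be that of the other groups. Yap1 was -0.40 by its other probe set and no longer past the threshold.

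With the replicate number as a replicate block, member counts were as reported except for 3 lower in WT, where Abcc6 (-0.62, adjusted p 0.0287) was added. Same-numbered arrays of the 2 genotypes had deviations correlated at -0.01 to 0.03. With 2 arrays in a day 0 group the deviations mirror each other, so day 0 gives 1 value with its sign flipped. These values cannot show whether same-numbered arrays share more than a number. A probe set reads only the transcripts its probes match, and an array cannot show a difference smaller than the spread of 2 or 3 arrays.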
